A study of Mus musculus with 16 samples.

Results

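Glucose uptake and glycolysis in the mouse left ventricle were followed through 9 genes, Slc2a1, Slc2a4, Hk1, Hk2, Pfkm, Pfkfb1, Pfkfb2, Aldoa and Pkm. They were found by name among the non-control probes of the arrays, where Pkm stands under its older name Pkm2. The 9 genes had 19 probes, 17 of which passed the filter on dim probes, out of 23066 probes that passed. All 9 genes were among the 15667 genes tested. The study measured mRNA on 16 one-colour Agilent arrays, 4 in each of 4 groups, with 2 males and 2 females in every group. The transgenic mice (alpha-MHC-NOS3, here NOS3-TG) carry nitric oxide synthase 3 driven by the promoter of alpha-myosin heavy chain, a cardiomyocyte gene, and the wild-type mice (WT) were their littermates. Mice of both genotypes were either intact, called baseline here, or had had transverse aortic constriction (TAC), a narrowing of the aorta that loads the left ventricle with pressure, 10 weeks earlier. All animals had a C57BL/6 N background after 7 generations of backcrossing and were matched for age and weight, with their age not given in the sources used here. The controls were unoperated, so effects of pressure load and of surgery cannot be told apart. Each RNA came from a ring of tissue through the middle of the ventricle, and in such bulk tissue fewer cells of a type and less RNA per cell cannot be told apart.

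The heart takes up glucose through membrane carriers and phosphorylates it to glucose 6-phosphate, which commits it to the cell. Phosphofructokinase is the main control point of glycolysis, and the bifunctional PFKFB enzymes set its activity by making and breaking down fructose 2,6-bisphosphate. The adult heart draws most of its energy from fatty acids, and a shift of the loaded heart toward glucose is a long-standing subject in this field.

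Levels below are log2 intensities relative to the 75th percentile of each array, so 0 is the 75th percentile, and they compare groups for 1 probe, not probes with each other. A difference was called where limma's moderated test gave a Benjamini-Hochberg adjusted p under 0.05 over the 15667 genes, and differences are given as log2 difference ± SE with 4 arrays per group. The overexpressed gene followed the labels. Nos3 lay at 0.96 to 1.45 at WT baseline and at 1.51 to 1.85 in WT TAC, against 7.63 to 8.02 at NOS3-TG baseline and 6.94 to 7.77 in NOS3-TG TAC. After TAC Nos3 itself fell by 0.48 ± 0.12 in NOS3-TG (limma, adjusted p = 0.0207) and rose by 0.41 ± 0.12 in WT (0.0195). The NOS3-TG groups therefore differed in Nos3 mRNA as well as in TAC. All 10 cardiomyocyte markers passed the filter on dim probes. The 75th percentile of the raw signal ranged from 1053 to 1491, and a median of 52.5% of probes were well above background. NOS3-TG TAC replicate 4 (68.0%), NOS3-TG baseline replicate 2 (44.5%) and NOS3-TG TAC replicate 3 (46.2%) stood apart in that share. Baseline and TAC arrays lay on different slides, so slide and TAC cannot be told apart, while each slide held both genotypes. All baseline arrays and the TAC arrays of slide 2 were scanned on day 1, and the TAC arrays of slide 3 on day 2. Scan day and TAC are therefore partly mixed, and a block for scan day also takes up part of the TAC difference. On every slide the NOS3-TG arrays lay at positions 1 and 2 and the WT arrays at positions 3 and 4. Genotype and position on the slide therefore cannot be told apart.

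After TAC in WT mice, 5 of the 9 genes changed, beside 28.4% of all genes tested. Slc2a1 rose (1 of 9, beside 10.9% of all genes called higher), and Slc2a4, Pfkm, Pfkfb1 and Pkm fell (4 of 9, beside 17.6% called lower). The median difference of the 9 genes was -0.30, against -0.06 over all genes. The 4 genes that fell had every WT TAC array below every WT baseline array, a separation in either direction that 27.5% of genes showed. In NOS3-TG mice only Pfkfb1 fell after TAC, 1 of 9 genes beside 11.8% of all genes in either direction and 5.34% called lower, and the median difference of the 9 genes was -0.13, against -0.00103 over all genes. Neither comparison of genotypes called any of the 9 genes. The TAC comparison in WT and the genotype comparison at baseline share the WT baseline arrays, and the other comparisons share arrays in the same way, so their values for a gene are not independent of each other.

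**Figure D1:**
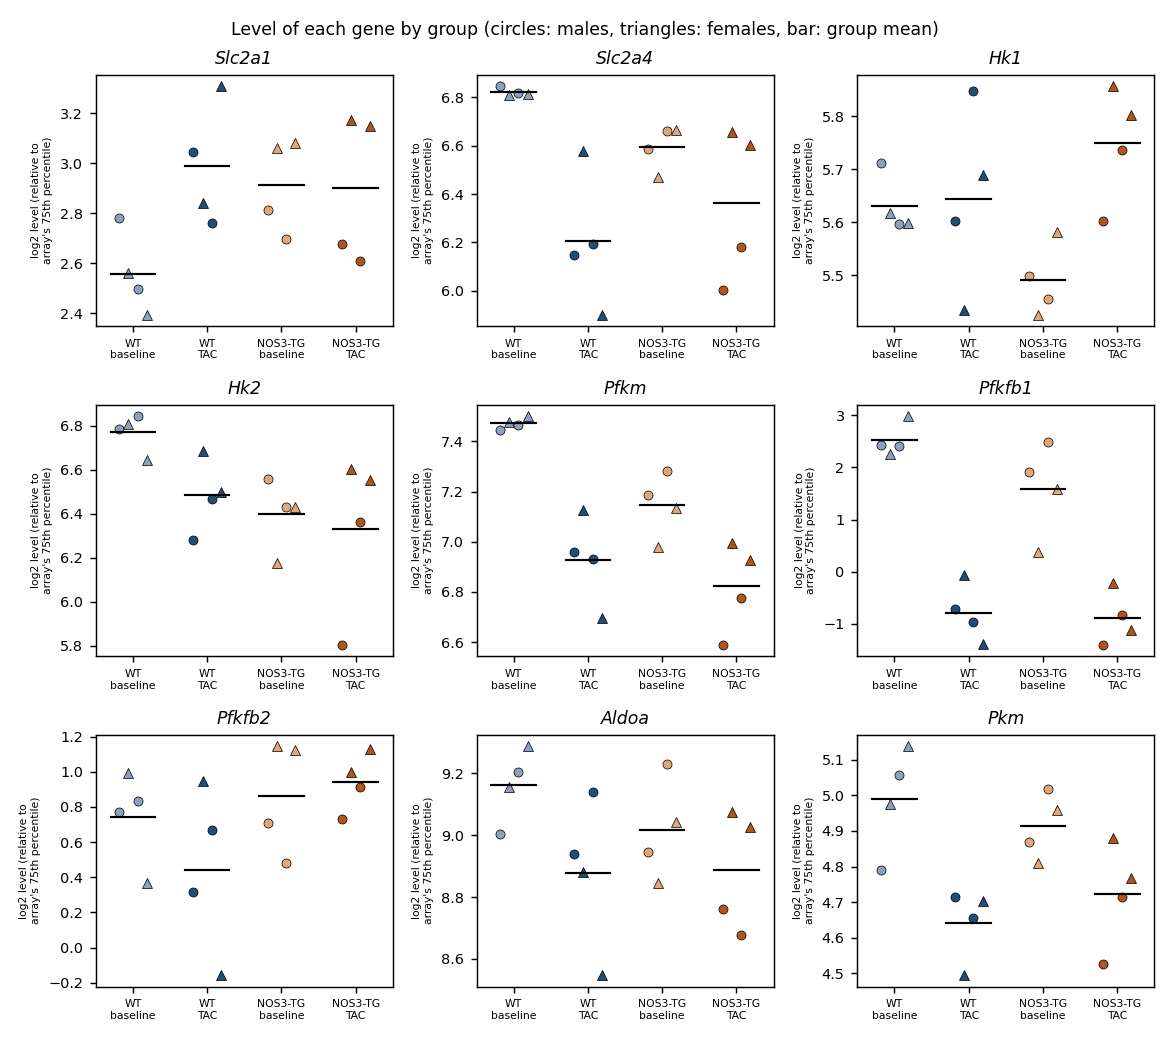
Level of each of the 9 genes on each array (log2 relative to the array's 75th percentile), by group, with circles for males, triangles for females and a bar for the group mean; each panel has its own vertical scale. Pfkfb1 lies between 2.26 and 2.98 at WT baseline and between -1.39 and -0.06 in WT TAC, and the 4 Slc2a4 values at WT baseline lie within 6.81 to 6.85.

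The carriers come first. Slc2a1 encodes GLUT1, the carrier of basal glucose uptake that many cell types carry. Its probe lies at chr4:118513698-118513757 on the plus strand in the array files, with the build not given in the sources used here, as for all probe positions below. In the order of the replicates 1 to 4, Slc2a1 stood at 2.78, 2.56, 2.50 and 2.39 at WT baseline and at 3.04, 2.84, 2.76 and 3.31 in WT TAC. The 2 groups met only at the lowest TAC array and the highest baseline array. Slc2a1 rose by 0.43 ± 0.14 after TAC in WT (limma, adjusted p = 0.0372), which is 1.35-fold. The call was held in 17 of 28 settings of the processing. It was lost when any one of 5 arrays was left out, namely WT baseline replicate 2 (adjusted p = 0.0939), 3 (0.0666) or 4 (0.111), or WT TAC replicate 1 (0.0988) or 4 (0.120). In NOS3-TG mice Slc2a1 stood at 2.81, 3.06, 2.70 and 3.08 at baseline and at 2.68, 3.17, 2.61 and 3.15 after TAC, 2 groups that overlapped over most of their range. Its TAC difference there was -0.011 ± 0.14 (95% confidence interval -0.32 to 0.29, adjusted p = 0.972). The difference between the 2 TAC responses was -0.44 ± 0.20 (limma, adjusted p = 0.666), which did not pass.

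The window of 250 bases before the RefSeq start of Slc2a1 is shown because it holds ACGTG, the core that hypoxia-inducible factors bind, and Hif1a is among the regulators described below. It lies at chr4:119108495-119108744 on the plus strand of GRCm38.p6, and the capitals mark the motif, 36 bases before the start.
Slc2a1: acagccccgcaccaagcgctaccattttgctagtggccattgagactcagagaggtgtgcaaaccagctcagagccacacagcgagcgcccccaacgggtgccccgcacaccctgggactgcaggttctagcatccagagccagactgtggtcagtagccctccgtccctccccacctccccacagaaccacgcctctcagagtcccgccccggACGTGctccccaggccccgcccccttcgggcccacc
Motifs were searched on both strands in the windows of 8 of the 9 genes, 20 windows in all, some of which overlap. Slc2a4 had no window and was not searched. ACGTG stood in 9 of these 20 windows and in 16.6% of all 32851 windows in the table. The Aldoa windows with ACGTG overlap and hold the same site, which is counted more than once in the 9. By gene, it stood in at least 1 window of 6 of the 8 genes (Slc2a1, Hk2, Pfkm, Pfkfb2, Aldoa and Pkm), against 18.5% of 27025 genes. The 8 genes had 20 windows and the 27025 genes had 32851, so the 8 had more windows per gene. More windows raise the share of genes with at least 1 match, so these 2 shares are not alike. The E-box CACGTG, which contains ACGTG on both strands, stood in 2 of the 20 windows, 1 each of Pfkm and Pfkfb2, against 6.02% of all windows. These are matches of letters and say nothing of binding in this tissue.

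Macrophages also carry GLUT1, and macrophage markers moved beside Slc2a1. Of 10 macrophage markers, 6 rose in WT after TAC, beside 10.9% of all genes called higher. All 10 were above 0, and their median difference was 0.44. Their summed level ranged from 6.04 to 6.35 at WT baseline, from 6.47 to 6.83 in WT TAC, from 6.53 to 6.80 at NOS3-TG baseline and from 6.73 to 6.93 in NOS3-TG TAC. Endothelial markers also counted 4 of 10 called higher in WT after TAC, beside the same 10.9%, with a median of 0.30. Their summed levels were 6.26 to 6.44 at WT baseline, 6.33 to 6.46 in WT TAC, 5.95 to 6.36 at NOS3-TG baseline and 6.12 to 6.33 in NOS3-TG TAC. The part of macrophages and endothelial cells in the Slc2a1 result was not tested.

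Slc2a4 encodes GLUT4, the carrier that insulin and muscle work bring to the membrane of muscle cells and adipocytes. Its probe (chr11:70024145-70024204, minus strand) was printed on 10 spots of each array, of which 8 to 10 were used, and the SD between spots of 1 array was 0.0352 to 0.0874. At WT baseline Slc2a4 stood at 6.85, 6.81, 6.82 and 6.81, with a between-mouse SD of 0.0167. That SD is of array means over the spots used, so it is not directly comparable to the SD of single spots. In WT TAC Slc2a4 stood at 6.15, 6.58, 6.19 and 5.90, with an SD of 0.280, and every TAC array lay below every baseline array. Slc2a4 fell by 0.62 ± 0.15 on the log2 scale (limma, adjusted p = 0.00804), which is 1.53-fold lower. With the authors' own deposited values the difference was -0.40 and was not called (adjusted p = 0.0593), the only loss of this call in 28 settings. In NOS3-TG mice the levels were 6.59, 6.47, 6.66 and 6.67 at baseline and 6.00, 6.66, 6.18 and 6.60 after TAC. The 2 NOS3-TG groups overlapped, since TAC replicates 2 and 4 lay within the baseline range and replicates 1 and 3 below it. The TAC difference in NOS3-TG was -0.23 ± 0.15 (95% confidence interval -0.55 to 0.081, adjusted p = 0.320), and the difference between the TAC responses, 0.38 ± 0.21 (adjusted p = 0.699), did not pass.

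**Figure D2:**
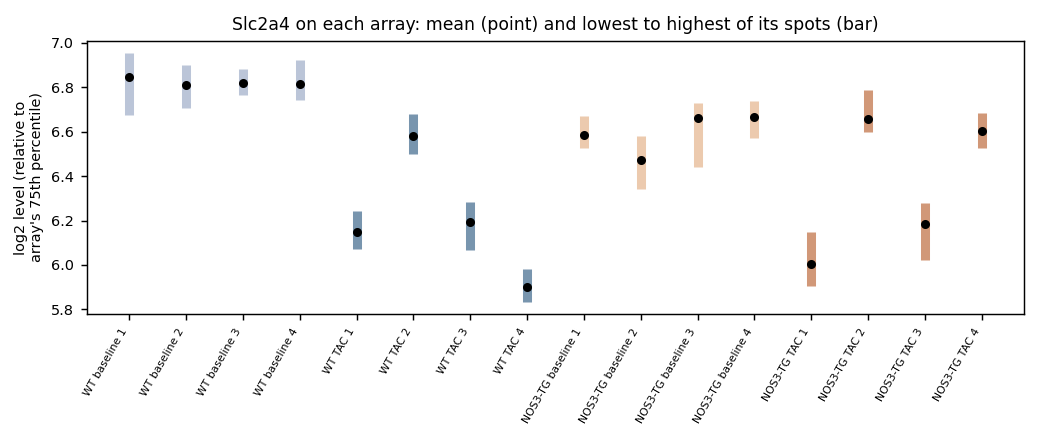
Slc2a4 on each of the 16 arrays, with a point for the mean of its spots and a bar from the lowest to the highest spot (log2 relative to the array's 75th percentile). The SD between spots within an array is at most 0.0874, while the SD between mice is 0.280 in WT TAC and 0.319 in NOS3-TG TAC.

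Hexokinases trap glucose in the cell as glucose 6-phosphate, and neither isoform was called in any comparison. Hk2, the insulin-responsive isoform of adult muscle (chr6:82750613-82750672, minus strand), stood at 6.79, 6.81, 6.84 and 6.65 at WT baseline and at 6.28, 6.69, 6.47 and 6.50 in WT TAC. It lay at 6.56, 6.18, 6.43 and 6.43 at NOS3-TG baseline and at 5.80, 6.60, 6.36 and 6.55 in NOS3-TG TAC. WT baseline was the highest of the 4 groups, and 1 WT TAC array reached into it. The TAC difference of Hk2 was -0.29 ± 0.15 in WT (adjusted p = 0.176) and -0.069 ± 0.15 in NOS3-TG (adjusted p = 0.811). Without NOS3-TG TAC replicate 1, the lowest Hk2 array, the latter was 0.10.

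Hk1, the isoform most cells carry, was read by 6 probes, 2 of which failed the filter (well above background on 0 and on 2 arrays). Its brightest probe, A_52_P102773, lies at chr10:61787906-61787965 on the minus strand, the last of the 6 along the transcribed strand. It stood at 5.71, 5.62, 5.60 and 5.60 at WT baseline, 5.60, 5.43, 5.85 and 5.69 in WT TAC, 5.50, 5.43, 5.46 and 5.58 at NOS3-TG baseline and 5.60, 5.86, 5.74 and 5.80 in NOS3-TG TAC. The 2 WT groups overlapped, while all 4 NOS3-TG TAC arrays lay above all 4 NOS3-TG baseline arrays. With Pfkfb1, this made 2 of the 9 genes without overlap between the NOS3-TG groups, beside 16.6% of all genes. The TAC difference was 0.26 ± 0.090 in NOS3-TG (adjusted p = 0.0792) and 0.013 ± 0.090 in WT (adjusted p = 0.930). The NOS3-TG difference was called in 1 of 28 settings, without WT TAC replicate 2 (adjusted p = 0.0476). The other 3 passing probes were above 0 after TAC in both genotypes. A_52_P479599 gave 0.55 ± 0.22 in WT (adjusted p = 0.0804 over the 23066 probes) and 0.54 ± 0.22 in NOS3-TG (0.136). A_52_P674530 gave 0.36 and 0.28, and A_51_P249024 gave 0.30 and 0.24. None of the 4 was called in either genotype (beside 27.3% of probes in WT and 10.6% in NOS3-TG), so the probes differed in the size of the WT value without a call in either direction.

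Pfkm, the muscle subunit of phosphofructokinase, fell in WT after TAC under every setting tried. Its probe (chr15:98135465-98135524, plus strand) stood at 7.45, 7.48, 7.47 and 7.50 at WT baseline and at 6.96, 7.13, 6.93 and 6.70 in WT TAC. The 4 baseline mice lay within a narrow band and all TAC mice below it. The fall was 0.54 ± 0.11 on the log2 scale (limma, adjusted p = 0.00306), 1.46-fold, and was called in 28 of 28 settings. In NOS3-TG mice Pfkm stood at 7.19, 6.98, 7.28 and 7.13 at baseline and at 6.59, 7.00, 6.78 and 6.93 after TAC, where TAC replicate 2 (7.00) lay above baseline replicate 2 (6.98) and the groups otherwise separated. The NOS3-TG difference was -0.32 ± 0.11 (adjusted p = 0.0672) and passed in 4 of 28 settings. These were the authors' values (adjusted p = 0.0351) and the fits without WT TAC replicate 4 (0.0372), NOS3-TG baseline replicate 2 (0.0417) or NOS3-TG TAC replicate 2 (0.0497). The difference between the TAC responses was 0.22 ± 0.15 (95% confidence interval -0.11 to 0.55, adjusted p = 0.742). The profile of Pfkm over the 16 arrays was the nearest of any member pair to that of Slc2a4, at a root mean square distance of 0.13 after each gene's own mean was taken off, and the next pair was Aldoa with Pkm at 0.15.

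Pfkfb1, the liver and muscle form of the bifunctional enzyme that makes and removes fructose 2,6-bisphosphate, had the largest TAC difference of the 9 genes in each genotype. Its single probe (chrX:145402403-145402462, plus strand) was well above background on all 16 arrays. Pfkfb1 stood at 2.43, 2.26, 2.41 and 2.98 at WT baseline and at -0.71, -0.064, -0.96 and -1.39 in WT TAC. In NOS3-TG mice it stood at 1.90, 0.38, 2.49 and 1.58 at baseline and at -1.40, -0.22, -0.83 and -1.12 after TAC. In both genotypes all TAC arrays lay below all baseline arrays, and NOS3-TG baseline replicate 2 (0.38) was the lowest intact mouse by more than 1 log2 unit. Pfkfb1 fell by 3.30 ± 0.41 on the log2 scale in WT (limma, adjusted p = 0.000248), which is 9.86-fold lower. In NOS3-TG it fell by 2.48 ± 0.41 (adjusted p = 0.00289), which is 5.58-fold lower. Both calls held in 28 of 28 settings, with values of -3.58 to -3.06 in WT and -2.90 to -2.17 in NOS3-TG. The difference between the 2 falls was 0.82 ± 0.58 (95% confidence interval -0.42 to 2.07, adjusted p = 0.749), so these arrays show no difference between the genotypes and leave room for 1 in either direction.

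The 4 windows of 250 bases before the annotated starts of Pfkfb1 in RefSeq (GRCm38.p6, plus strand of chromosome X) are shown because this gene had the largest change and because they differ in their motifs. They lie at chrX:150587195-150587444, chrX:150587993-150588242, chrX:150589666-150589915 and chrX:150594178-150594427, in the order of the lines. The capitals in the third window mark a MEF2 site at 113 bases and the nuclear receptor half-site AGGTCA at 100 bases before that start, the latter read on the other strand.
Pfkfb1 window 1: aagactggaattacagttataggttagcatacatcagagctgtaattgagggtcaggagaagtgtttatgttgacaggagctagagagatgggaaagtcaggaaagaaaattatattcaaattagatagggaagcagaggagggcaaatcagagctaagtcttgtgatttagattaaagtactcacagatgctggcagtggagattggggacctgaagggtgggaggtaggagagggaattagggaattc
Pfkfb1 window 2: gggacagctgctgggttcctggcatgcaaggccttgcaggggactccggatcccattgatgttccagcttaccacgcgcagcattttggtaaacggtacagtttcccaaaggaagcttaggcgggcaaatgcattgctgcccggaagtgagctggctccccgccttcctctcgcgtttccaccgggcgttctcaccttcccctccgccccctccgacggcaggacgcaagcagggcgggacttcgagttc
Pfkfb1 window 3: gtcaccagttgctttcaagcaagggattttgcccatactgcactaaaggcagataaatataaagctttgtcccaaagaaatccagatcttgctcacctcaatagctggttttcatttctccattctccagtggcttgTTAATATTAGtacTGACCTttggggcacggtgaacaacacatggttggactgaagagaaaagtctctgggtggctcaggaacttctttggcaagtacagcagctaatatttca
Pfkfb1 window 4: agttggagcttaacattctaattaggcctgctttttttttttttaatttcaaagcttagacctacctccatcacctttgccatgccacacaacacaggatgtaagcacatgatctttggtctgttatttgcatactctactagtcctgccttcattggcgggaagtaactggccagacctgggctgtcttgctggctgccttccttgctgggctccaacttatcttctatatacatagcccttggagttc
The MEF2 site stood in 1 of the 20 windows of the 8 genes, this one, and in 2.92% of all 32851 windows, with Slc2a4 not searched. AGGTCA stood in 5 of the 20 windows, in Pfkm, Pfkfb1, Aldoa and Pkm, and in 14.0% of all windows. The Aldoa windows with AGGTCA overlap and hold the same site, which is counted more than once in the 5. No Pfkfb1 window held ACGTG. Which start the ventricle uses was not measured.

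The genes nearest to Pfkfb1 in profile over the 16 arrays were Acot1 (root mean square distance 0.41), a thioesterase of fatty acyl-CoA, Acsm5 (0.58), an acyl-CoA synthetase, and Retnla (0.60), a secreted protein of macrophages and fat. The root mean square of Pfkfb1 itself around its mean was 1.57. Their TAC differences were -2.98 in WT and -2.46 in NOS3-TG for Acot1, -2.84 and -2.39 for Acsm5, and -2.73 and -2.62 for Retnla. They were chosen for this likeness, so the values describe it and add no test.

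Adipocyte markers were read beside Pfkfb1, since fat on the heart could enter a ring of tissue. Of the 5 that were tested, Plin1 (-2.90, adjusted p = 0.00576) and Cidec (-2.60, adjusted p = 0.0404) fell in WT after TAC, beside 17.6% of all genes called lower. Adipoq stood at -2.60 without a call (adjusted p = 0.0508), and none of the 5 was called in NOS3-TG. Fabp4, which other cells of the heart also express, stood at 0.068 in WT. The summed level of the 5 was nearly all Fabp4, at a mean of 7.52 of a summed 7.54 at WT baseline, so it does not show the other markers. That sum was 7.20 to 7.80 at WT baseline, 7.40 to 7.71 in WT TAC, 7.10 to 7.68 at NOS3-TG baseline and 7.02 to 7.45 in NOS3-TG TAC, and Lep was below the filter. The part of these cells in the Pfkfb1 result was not tested.

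Pfkfb2, the form of the bifunctional enzyme that predominates in heart muscle, was read by 4 passing probes that did not move together. Its brightest probe, A_51_P184849 (chr1:130593627-130593686, minus strand), stood at 0.77, 1.00, 0.84 and 0.37 at WT baseline and 0.31, 0.95, 0.67 and -0.16 in WT TAC, and at 0.71, 1.14, 0.48 and 1.12 and 0.73, 1.00, 0.91 and 1.13 in the corresponding NOS3-TG groups. All these groups overlapped, and the TAC differences were -0.30 ± 0.22 in WT (adjusted p = 0.338) and 0.079 ± 0.22 in NOS3-TG (adjusted p = 0.853). Probes A_51_P335251 (-0.13 and 0.12) and A_52_P142912 (-0.34 and 0.20) had the same signs and were not called.

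The dimmest probe of Pfkfb2, A_52_P31125 (chr1:130601049-130601108, minus strand), differed from the others. It was well above background on 1 of 4 arrays at WT baseline, 4 in WT TAC, 4 at NOS3-TG baseline and 3 in NOS3-TG TAC. Its levels were -4.26, -4.39, -3.89 and -4.44 at WT baseline and -3.74, -2.75, -3.81 and -3.18 in WT TAC, against -3.37, -2.39, -3.26 and -2.82 at NOS3-TG baseline and -3.44, -2.26, -3.24 and -2.01 in NOS3-TG TAC. The 4 WT baseline arrays were below every array of the other 3 groups. This probe was higher by 0.88 ± 0.25 after TAC in WT (limma, adjusted p = 0.0224 over the probes) and by 1.29 ± 0.25 in NOS3-TG at baseline (adjusted p = 0.0528, with 0.347% of probes called). Under normexp background correction these values became 0.39 (adjusted p = 0.283) and 0.33 (0.732). The TAC call was also lost without WT baseline replicate 2 (0.0710) or 4 (0.0684) or WT TAC replicate 2 (0.0516), and without the filter, the sex term or the other 2 groups or with scan day as a block (0.0514 to 0.0665), so it held in 17 of 25 settings. The baseline difference passed after quantile normalization (0.0443), with the authors' values (0.0348) and without WT baseline replicate 3 (0.0156) or WT TAC replicate 2 (0.0451), 4 of 25 settings. With only 1 WT baseline array above background, the size of both differences depends on how background was removed.

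**Figure D3:**
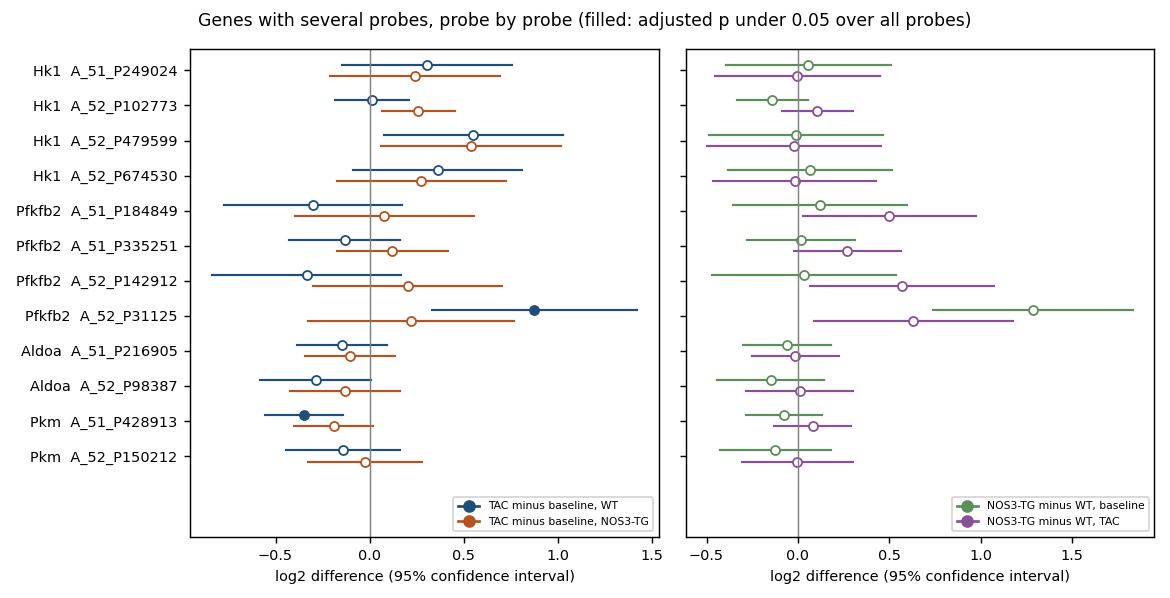
Log2 differences with 95% confidence intervals for each passing probe of Hk1, Pfkfb2, Aldoa and Pkm, for TAC minus baseline in each genotype (left) and NOS3-TG minus WT in each condition (right); filled points have an adjusted p under 0.05 over all probes. Only Pfkfb2 A_52_P31125 and Pkm A_51_P428913 are filled, each for TAC in WT, and the 4 Pfkfb2 probes lie on both sides of 0.

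Aldoa, the muscle aldolase, cleaves fructose 1,6-bisphosphate and was among the brightest features on every array. Its probe A_52_P98387 (chr7:122891843-122891902, minus strand) ranked 1 of the non-control probes on all arrays except WT TAC replicate 4, where it ranked 2, and was saturated on WT baseline replicate 4. Its measured level was 9.01 to 9.29 at WT baseline, 8.55 to 9.14 in WT TAC, 8.85 to 9.23 at NOS3-TG baseline and 8.68 to 9.08 in NOS3-TG TAC. The groups overlapped, and the TAC differences of -0.29 ± 0.14 in WT (adjusted p = 0.131) and -0.13 ± 0.14 in NOS3-TG (adjusted p = 0.573) were not called. The saturated array was the highest of its group and gives only a lower limit there, so the WT value is a limit on how far Aldoa lay below baseline, and without that array it was -0.24 (adjusted p = 0.260). A second probe, A_51_P216905, gave -0.15 and -0.10. Quantile normalization gives the top rank the same value on every array, so it can show a difference of this probe only through WT TAC replicate 4. The second probe stood at 0.11 in WT under it.

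Pkm encodes the muscle pyruvate kinase, which makes pyruvate and ATP in the last step of glycolysis, and its splice forms M1 and M2 are not told apart here. Probe A_51_P428913 (chr9:59706027-59706086, plus strand) stood at 4.79, 4.97, 5.06 and 5.14 at WT baseline and 4.71, 4.49, 4.65 and 4.70 in WT TAC, and at 4.87, 4.81, 5.02 and 4.96 and 4.53, 4.88, 4.71 and 4.77 in NOS3-TG. The WT groups did not overlap, and in NOS3-TG 1 TAC array (4.88) lay within the baseline range. In WT Pkm fell by 0.35 ± 0.096 on the log2 scale (limma, adjusted p = 0.0171), 1.27-fold, while in NOS3-TG the difference was -0.19 ± 0.096 (adjusted p = 0.215). The second probe, A_52_P150212, did not show the fall, with -0.14 ± 0.14 in WT (adjusted p = 0.482) and -0.025 in NOS3-TG. Averaged over both probes, Pkm differed by -0.25 in WT (adjusted p = 0.126). The call was lost as well without WT baseline replicate 3 (0.0548) or 4 (0.0535).

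Markers of other cells and of cardiomyocytes are given beside the falls in WT. Of 10 cardiomyocyte markers, Pln (-0.39) and Ryr2 (-0.66) fell after TAC, beside 17.6% of all genes called lower, and 8 were not called. Of the 10, 1 was above 0, and the median was -0.23 against -0.06 over all genes. Their summed level was 10.9 to 11.2 at WT baseline, 10.7 to 11.1 in WT TAC, 10.8 to 11.2 at NOS3-TG baseline and 10.7 to 11.0 in NOS3-TG TAC. Fibroblast markers had 4 of 10 called higher in WT, beside 10.9% of all genes. Their summed levels were 7.40 to 8.09 at baseline and 7.75 to 8.40 after TAC in WT, and 7.51 to 8.02 and 7.68 to 8.27 in NOS3-TG. Smooth muscle and pericytes had 8 markers, of which 2 fell and 1 rose in WT, beside the same 17.6% and 10.9%. Their summed levels were 6.94 to 7.40 at baseline and 7.03 to 7.49 after TAC. In NOS3-TG their summed level was 6.78 to 7.01 at baseline and 7.23 to 7.54 after TAC without overlap. There 1 marker was called higher and 1 lower, beside 11.8% of all genes in either direction. Only 1 of the 8 markers was above 0 in NOS3-TG, and their median was -0.36, so the summed rise does not show the other markers. None of the 4 lymphocyte and 3 erythroid markers that were tested was called. Of 3 skeletal muscle genes in WT Tnnt3 rose (0.64) and Ckm fell (-0.44), beside the same 10.9% and 17.6%. The sum of these 2, nearly all Ckm, the creatine kinase of muscle that the heart expresses too, was 6.08 to 6.44 at WT baseline and 5.60 to 6.08 in WT TAC without overlap, and 5.84 to 6.16 and 5.34 to 6.07 in NOS3-TG. The part of a changed mix of cells in the falls of Slc2a4, Pfkm, Pfkfb1 and Pkm or in the Hk1 values was not tested.

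The transgene at baseline was compared next. None of the 9 genes was called between NOS3-TG and WT at baseline, beside 0.415% of all genes (65 of 15667, 24 to 111 over the settings, with 1926 at an unadjusted p under 0.05 by limma). At that unadjusted level 4 of the 9 passed, namely Slc2a1, Hk2, Pfkm and Pfkfb1. Separately, 4 of the 9 had every NOS3-TG array below every WT array, beside 9.96% of genes that separated in either direction. These were Slc2a4 (-0.23 ± 0.15, adjusted p = 0.549), Hk1 (-0.14 ± 0.090, 0.548), Hk2 (-0.37 ± 0.15, 0.344) and Pfkm (-0.33 ± 0.11, 0.237). Each was below 0 on both baseline slides, for Pfkm by -0.38 on slide 1 and -0.27 on slide 4 and for Hk2 by -0.43 and -0.32. The Hk1 value is that of its brightest probe. Its probes A_51_P249024, A_52_P479599 and A_52_P674530 gave 0.057, -0.0084 and 0.068 and overlapped between the genotypes. With the mean of all its probes Hk1 differed by -0.0059. With the authors' values the Slc2a4 difference was -0.022 (adjusted p = 0.968). Pfkfb1 differed by -0.93 ± 0.41 (adjusted p = 0.384), and by -0.52 without NOS3-TG baseline replicate 2. Slc2a1 lay above WT by 0.35 ± 0.14 (adjusted p = 0.330), with 0.27 on slide 1 and 0.44 on slide 4. Macrophage markers also lay above WT there, all 10 above 0 with 2 called and a median of 0.64. Endothelial markers went the other way, with 2 of 10 above 0, 0 called and a median of -0.14. The part of either cell type in the Slc2a1 value was not tested.

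After TAC the genotypes overlapped for all 9 genes. The count without overlap was 0 of 9, beside 5.55% of genes, and 0 of 9 were called by limma, beside 0.281% of genes (44 genes, 2 to 94 over the settings, with 1 of the 9 and 1922 of all genes at an unadjusted p under 0.05). The largest difference was that of Pfkfb2, 0.50 ± 0.22 (adjusted p = 0.375), with 0.24 on slide 2 and 0.76 on slide 3. Pfkfb1, which had fallen in both genotypes, differed by -0.11 ± 0.41 (95% confidence interval -0.99 to 0.77). Slc2a4 differed by 0.16 ± 0.15, with -0.03 on slide 2 and 0.35 on slide 3.

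Whether TAC acted differently in the 2 genotypes was tested directly. No gene of the 15667 was called (0%), with 1166 at an unadjusted p under 0.05 by limma. Of the 9 genes, 8 had a difference of TAC responses above 0, with a median of 0.22 against 0.07 over all genes, and the exception was Slc2a1. The passing of 5 genes in WT and 1 in NOS3-TG therefore does not show that the genotypes responded differently. The 95% confidence intervals of the differences, such as -0.24 to 0.68 for Hk2 and -0.14 to 0.45 for Pkm, included 0 for every one of the 9 except Slc2a1 (-0.87 to -0.0099), before adjustment.

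**Figure D4:**
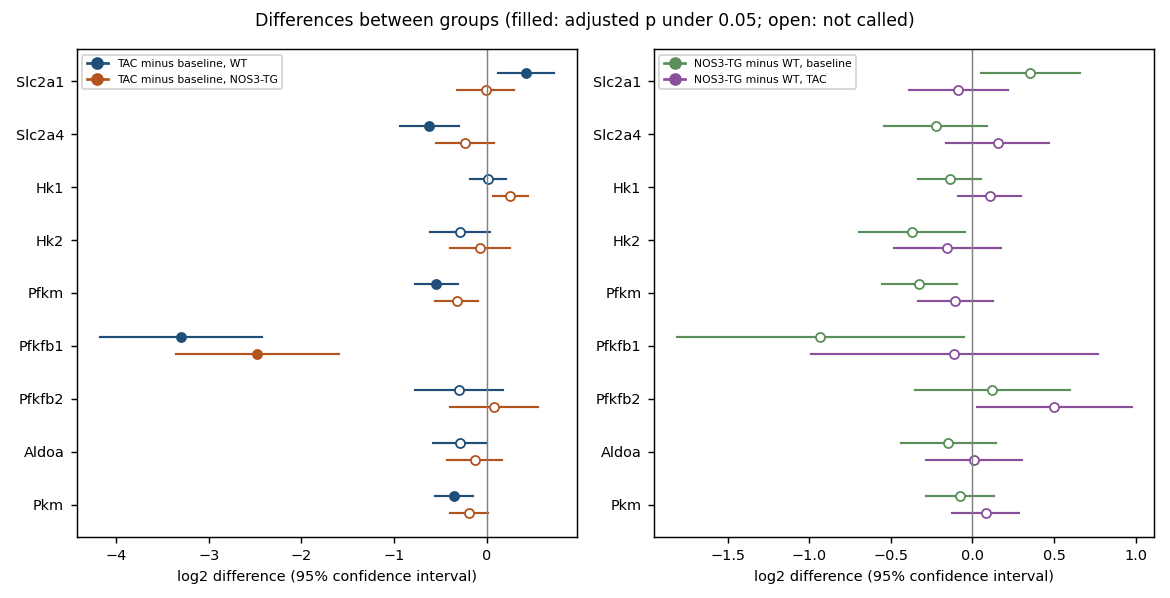
Log2 differences with 95% confidence intervals for the 9 genes, for TAC minus baseline in WT and NOS3-TG (left) and for NOS3-TG minus WT at baseline and after TAC (right); filled points have an adjusted p under 0.05. On the left, 5 WT points and 1 NOS3-TG point are filled, with Pfkfb1 at -3.30 and -2.48, and on the right none is filled.

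The remaining genes of the pathway gave a mixed picture. Of 33 further genes of glycolysis and glucose transport, 28 were tested, of which 4 rose and 7 fell in WT after TAC and 3 rose and 2 fell in NOS3-TG. Beside these counts, 10.9% of all genes were called higher and 17.6% lower in WT, and 11.8% in either direction in NOS3-TG. The median differences of the 28 were -0.11 in WT and -0.000465 in NOS3-TG, against -0.06 and -0.00103 over all genes. Fbp2, the muscle fructose bisphosphatase that runs the phosphofructokinase step backwards, fell by 2.25 ± 0.34 in WT (limma, adjusted p = 0.000658) and by 1.54 ± 0.34 in NOS3-TG (0.0120). Pfkp, the platelet subunit of phosphofructokinase, rose by 1.29 ± 0.17 in WT (adjusted p = 0.000375) and by 0.96 ± 0.17 in NOS3-TG (0.00457), while Pfkm lay below 0 in both. The NOS3-TG calls of Fbp2 and Pfkp each held in 27 of 28 settings. Pgam1, a phosphoglycerate mutase, rose by 0.63 ± 0.098 in WT (0.000846) and by 0.36 ± 0.098 in NOS3-TG (0.0323), the latter called in only 15 of 28 settings. In the genotype comparison at baseline 1 of the 28 genes was called, and after TAC none, beside 0.415% and 0.281% of all genes.

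Among 23 tested genes of insulin and AMPK control of glucose uptake, 2 rose and 3 fell in WT after TAC, and 3 rose and 2 fell in NOS3-TG, with medians of -0.05 and 0.07. These counts stand beside 10.9% of all genes called higher and 17.6% lower in WT, and 11.8% in either direction in NOS3-TG. Tbc1d4, the Akt substrate that holds GLUT4 vesicles back, fell by 0.80 ± 0.18 in WT (limma, adjusted p = 0.00582) and by 0.61 ± 0.18 in NOS3-TG (0.0424), and its 3 probes had the same sign. The NOS3-TG fall of Tbc1d4 was called in only 13 of 28 settings, and in 8 of the 16 fits that each left out 1 array. Irs1, the adaptor of the insulin receptor, rose by 0.77 ± 0.20 in WT (0.0115) and by 0.92 ± 0.20 in NOS3-TG (0.0107). The NOS3-TG rise of Irs1 was lost without the 3 arrays of extreme share above background (0.118). Grb10, an inhibitory adaptor of the same receptor, rose by 0.67 ± 0.11 in WT (0.00111) and by 0.40 ± 0.11 in NOS3-TG (0.0353) by its brightest probe. Another Grb10 probe, A_52_P40363, lay at -0.51 and -0.72 without a call, and the mean of its probes gave 0.12 in WT (adjusted p = 0.569) and -0.046 in NOS3-TG (0.879). The NOS3-TG rise was called in 15 of 28 settings and was lost without any one of 7 NOS3-TG arrays. Stx4a, a syntaxin of GLUT4 docking, fell by 0.26 ± 0.073 in WT (0.0180), a call held in 24 of 28 settings and lost without WT baseline replicate 2 (0.0610) or WT TAC replicate 4 (0.0601). In NOS3-TG, Pik3r1, the regulatory subunit of phosphoinositide 3-kinase, fell by 0.88 ± 0.21 (0.0187) and stood at -0.62 in WT (0.0591). Its fall was called in 20 of 28 settings and lost without NOS3-TG baseline replicate 3 (0.0558) or 4 (0.0510), NOS3-TG TAC replicate 1 (0.0579) or 4 (0.0614), or the 3 extreme arrays (0.104). Trib3, a pseudokinase that binds Akt, rose by 0.48 ± 0.13 in NOS3-TG (0.0297) and stood at 0.28 in WT (0.118). Its rise was called in 18 of 28 settings and lost without NOS3-TG baseline replicate 1, 3 or 4 or NOS3-TG TAC replicate 1, 3 or 4, with an adjusted p of up to 0.0895, and without the 3 extreme arrays (0.139).

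Of 15 transcription regulators known to act on these genes, 2 rose and 7 fell in WT after TAC and 1 rose and 1 fell in NOS3-TG, with medians of -0.44 and -0.18. The shares of all genes were 10.9% called higher and 17.6% lower in WT, and 11.8% in either direction in NOS3-TG. Mef2a, a MEF2 factor of muscle genes including Slc2a4, fell by 0.60 ± 0.12 in WT (limma, adjusted p = 0.00320) and stood at -0.33 in NOS3-TG (0.0885). Its 3 probes gave -0.60, -0.75 and -0.87 in WT. Mef2d fell by 0.68 ± 0.12 in WT (0.00198) and by 0.41 ± 0.12 in NOS3-TG (0.0485) by its brightest probe, but its other probes gave 0.00377 and 0.29 in WT and the mean of all was -0.13 (adjusted p = 0.390). The NOS3-TG fall of Mef2d was called in only 8 of 28 settings and in 4 of the 16 fits without 1 array, with an adjusted p of up to 0.136 among the latter. Thrb, a thyroid hormone receptor, fell by 0.85 ± 0.19 in WT (0.00644), and Esrra, the estrogen-related receptor of energy metabolism, by 0.45 ± 0.11 (0.00842). Both were not called in NOS3-TG by the probe used, and Thrb was called there with the mean of its probes (0.0108). Ppargc1a, the coactivator of mitochondrial genes, fell by 0.76 ± 0.21 in WT (0.0180) and stood at -0.61 in NOS3-TG (0.0800). Mlxip, a glucose-sensing factor, fell by 0.44 ± 0.13 in WT (0.0209) and stood at -0.35 in NOS3-TG (0.0881). The WT fall of Ppargc1a was called in 26 of 28 settings and that of Mlxip in 24, the latter lost without WT baseline replicate 1 (0.0541) or WT TAC replicate 4 (0.0726). Hif1a, the hypoxia-inducible factor, rose by 0.27 ± 0.095 in WT (0.0455) and by 0.66 ± 0.095 in NOS3-TG (0.00121). The NOS3-TG rise was called in 28 of 28 settings and the WT rise in only 8, and the latter was kept in 3 of the 16 fits without 1 array. The difference between the 2 rises, 0.39 ± 0.13, did not pass (limma, adjusted p = 0.654). No gene of this list or of the insulin and AMPK list was called in a genotype comparison, beside 0.415% of all genes at baseline and 0.281% after TAC.

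**Figure D5:**
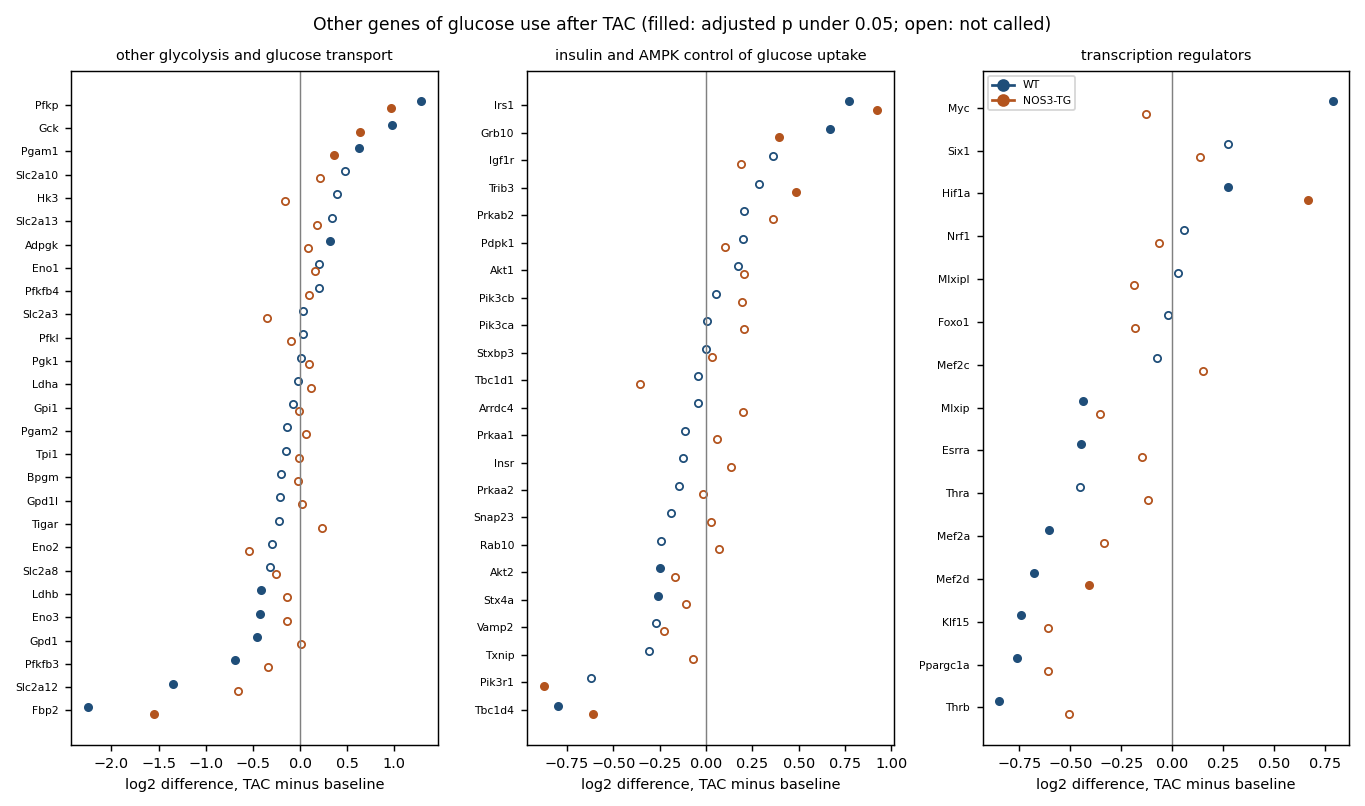
Log2 difference TAC minus baseline for the tested genes of 3 lists, other glycolysis and glucose transport (28 genes, 1 of them not shown), insulin and AMPK control of glucose uptake (23) and transcription regulators (15), in WT and NOS3-TG, sorted by the WT value, with filled points at an adjusted p under 0.05. Fbp2 (-2.25 in WT) lies lowest and Pfkp (1.29) highest in the first panel. In WT 7 of 15 regulators are filled below 0, beside 17.6% of all genes called lower.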

How the data were processed

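For each array the authors deposited a scanner text file, made with Agilent Feature Extraction (version 9.5.1.1 in the submitters' processing notes). The background-subtracted processed intensity in these deposited files was used, with their flags. They also deposited a table of log2 values with a normalization not given in the sources used here, which served as an alternative. Control and outlier spots were dropped, spots of a probe were averaged, and log2 signals were set against the 75th percentile of their array. Probes well above background on at least 4 of 16 arrays were kept, and the brightest stood for a gene. Names came through a RefSeq table of GRCm38.p6 by accession for 22951 of 41174 probes and by symbol or synonym for 6659 and 3109. Limma 3.58.1 in R 4.3.3 (data.table version 1.17.8) fitted the 4 groups and sex over all arrays, two-sided, and was tested on simulated data. Group and sex came from the labels, which call the animals biological repeats.

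Alternatives were normexp (offset 50), quantile normalization, the deposited log2 table, genes without any filter or filtered on all 16 arrays, a gene's probes averaged, a fit without sex or on only 2 groups, a block for slide or for scan day, and fits without the 3 extreme arrays or without each array in turn. A mean per group and sex was added after the data had been seen. The genes and all lists were chosen with earlier results of these data known. Named list genes are the 4 with the smallest p per list and TAC comparison. Some values of non-members (Thrb and Esrra in NOS3-TG, for example) were left out for length. The values of 1 gene of the list of other glycolysis genes are not reported here, though it is in that list's counts and medians. The number of arrays limits the precision, with a median SE of 0.132 on the log2 scale. Promoter windows are from RefSeq, and plots were made in Python 3.11.15 with matplotlib 3.10.9.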

Additional observations from a re-analysis of the deposited data

Results flagged for a closer look

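One of the less bright Hk1 probes, A_52_P674530, read 1.06 on NOS3-TG TAC replicate 4, while the other 3 arrays of that group lay between 1.46 and 1.51. The gap was 0.890 of the group's whole range, beyond the 95% limit of Dixon's test for 4 samples. It was the only such array among 68 combinations of probe and group, and chance alone gives about 1 in 20. That array also had the largest share of probes above background, 68.0%, and the part of this share in the value was not tested.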

How the results depend on the processing

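The falls of Pfkfb1 in both genotypes and of Pfkm in WT passed in all 28 settings. Of the 9 genes, 5 were called for TAC in WT, 3 without the filter and with the compared groups alone, and 3 to 5 with each array left out (3 without WT baseline replicates 3 or 4). For TAC in NOS3-TG, 1 was called, 2 with the authors' values and 1 to 2 with each array left out (2 without WT TAC replicates 2 or 4, NOS3-TG baseline 2 or NOS3-TG TAC 2). No setting called any of the 9 between genotypes or for the difference of TAC responses.

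Slc2a1 in WT was also lost under normexp (adjusted p = 0.0835), without the filter (0.0926), without the sex term (0.0592), with the groups alone (0.0862), with scan day as a block (0.100) and without the 3 extreme arrays (0.0564), and Pkm without the filter (0.0573) and with the groups alone (0.0585).

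Of the calls, 1 changed sign, the rise of Grb10 in NOS3-TG, which was -0.046 with the mean of probes. The other signs that turned were of values not called, and the cause was not tested. For Slc2a1 TAC in NOS3-TG the value was 0.015 (quantile), 0.031 (normexp), 0.036 (3 extreme arrays out) and -0.070 to 0.057 with each array left out. Hk1 TAC in WT was -0.052 under normexp, -0.060 with scan day and -0.061 to 0.088 by array. Hk2 ranged by array from -0.17 to 0.10 (TAC in NOS3-TG) and -0.23 to 0.018 (genotype after TAC), with -0.0086 for the difference of responses without the 3 arrays. Pfkfb1 after TAC between genotypes ranged from -0.37 to 0.17. Pfkfb2 was 0.027 for TAC in WT with the mean of probes, and by array -0.034 to 0.16 (TAC in NOS3-TG) and -0.040 to 0.23 (genotype at baseline). Aldoa after TAC between genotypes was -0.0021 with the mean of probes and -0.11 to 0.10 by array. Pfkfb2 A_51_P335251 in NOS3-TG was -0.027 without the 3 arrays. Aldoa A_51_P216905 was 0.11 (quantile) and 0.062 (authors' values) in WT and 0.028 (quantile) in NOS3-TG. Pkm A_52_P150212 in NOS3-TG was 0.039 under normexp and -0.090 to 0.026 by array.

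Slide as a block and a mean per group and sex changed no call among the 9. The labels give the groups no shared replicate numbers, so no replicate block was fitted. The block for slide was a random term with a consensus correlation of 0.060, so that fit was close to the fit without it. Each slide held only baseline or only TAC arrays, so this block cannot check the TAC differences against slide. Over all genes, the 4457 calls for TAC in WT became 2956 under normexp, 2872 without the filter, 2694 with scan day and 2911 without WT TAC replicate 4. The 1849 in NOS3-TG became 1028, 754 and 756 under the first 3 of these and 401 without the 3 extreme arrays. They fell to 971 to 1142 without NOS3-TG baseline replicate 1, 3 or 4 or NOS3-TG TAC replicate 1 or 4. Between genotypes at baseline the 65 calls became 26 to 41 without any one WT baseline array or NOS3-TG baseline replicate 2, 3 or 4, 111 without WT TAC replicate 2 and 24 under normexp or without the 3 extreme arrays. After TAC the 44 became 6 without WT TAC replicate 1, 29, 2 and 7 without NOS3-TG TAC replicates 1, 2 and 4, 4 with the groups alone and 94 with a mean per group and sex.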

Other observations

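In NOS3-TG mice the Slc2a1 values split by sex, a pattern noticed after the values were seen. On every slide males lay at positions 1 (NOS3-TG) and 3 (WT) and females at positions 2 and 4. Sex and position on the slide therefore cannot be told apart, here or for Pfkfb2 and Hk2 below. The 4 males, intact and TAC together, lay at 2.61 to 2.81 and the 4 females at 3.06 to 3.17, with no overlap. In WT mice the 4 males lay at 2.50 to 3.04 and the 4 females at 2.39 to 3.31. Male minus female was -0.42 ± 0.12 in NOS3-TG (limma, adjusted p = 0.185, with 0.121% of genes called) and -0.0041 ± 0.12 in WT. The difference between these was -0.41 ± 0.16 (limma, adjusted p = 0.999), and no gene of 15666 was called for it, with 520 at an unadjusted p under 0.05. Pfkfb2 split the same way in NOS3-TG, with males at 0.48 to 0.91 and females at 1.00 to 1.14, and a difference of -0.39 ± 0.22 (adjusted p = 0.498).

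Hk2 was read by sex and TAC together. Its TAC difference in males minus that in females was -0.50 ± 0.17 (limma, adjusted p = 0.350), and 0 of 15666 genes were called for this, with 1776 at an unadjusted p under 0.05. The NOS3-TG TAC arrays with the lowest Hk2 were the males, at 5.80 and 6.36, against 6.55 and 6.60.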
